A study of Homo sapiens with 9 samples.

Results

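The mRNAs of the mitochondrial protein import machinery were followed in HEK293T cells that stably expressed WT, G245S or R273H p53. The set held 40 protein-coding genes of the 78986 genes listed, 20120 of them protein-coding. A gene was included if its symbol began with TOMM or TIMM, or if it was one of 13 named partners (SAMM50, MTX1, MTX2, MTX3, PAM16, DNAJC19, GRPEL1, GRPEL2, HSPA9, CHCHD4, GFER, PMPCA and PMPCB). The rule uses names and no measured value, although the set was proposed with earlier results of these data known. By step, 14 genes were assigned to the outer membrane, 16 to the intermembrane space and inner membrane, and 8 to the matrix. The 2 others met the rule by symbol and were assigned to no step. These were TIMMDC1, an assembly factor of respiratory complex I, and the readthrough transcript TIMM23B-AGAP6.

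Nearly all mitochondrial proteins are made in the cytosol and carried in. The TOM complex is the common entrance of the outer membrane, and the SAM complex inserts beta-barrel proteins there. CHCHD4 and GFER form a disulfide relay that traps cysteine-rich proteins in the intermembrane space, where small TIM proteins chaperone membrane precursors. The TIM22 complex inserts carriers into the inner membrane, whereas the TIM23 complex passes proteins with a presequence to the matrix, where the HSPA9 motor pulls them in and the peptidase of PMPCA and PMPCB removes the presequence.

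The 3 groups, of 3 biological replicates each, were HEK293T cells carrying a stable lentiviral construct for WT p53, for p53 G245S or for p53 R273H, all grown under 1.5 µg/mL puromycin. HEK293T is a human embryonic kidney line that expresses the SV40 large T antigen, a viral protein known to bind p53, and it keeps its own p53 gene. The WT p53 line was the control, and none of the 9 libraries came from an untransduced line. Whether the lines were single clones is not given in the sources used here.

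Depth ranged from 7325514 to 9667306 counts in 8 libraries, and was 1486315 in WT replicate 3, which was left out of the fits for its depth. That library also stood apart in its markers. The summed level of 4 simple-epithelium genes (KRT8, KRT18, KRT19 and EPCAM) was 264 CPM there (normalised counts scaled to a common library size) and 72.2 to 83.9 CPM in the other 8 libraries, and KRT19 was at 33.7 CPM against 0.258 to 1.37 CPM. The 5 markers kept for this line (PAX2, LHX1, NEFL, NEFM and CDH2) were above 1 CPM in all 9 libraries, with sums of 261 to 334 CPM. Endothelial genes summed to at most 0.703 CPM, leukocyte genes to 1.84 to 3.08 CPM outside WT replicate 3 (11.2 CPM in it), and fibroblast genes, mostly collagens, to 28.9 to 117 CPM across all libraries. CD3E and CLDN5 were at 0 throughout. In bulk RNA, fewer cells of a type and less RNA per cell cannot be told apart. The labels call the cells epithelial, and in the 8 fitted libraries KRT18 was at 58.8 to 68.8 CPM and KRT8 at 9.65 to 12.1 CPM, while EPCAM and KRT19 were at most 3.42 CPM. PHLDA3, DDB2 and MDM2, direct p53 targets, were checked first. Their log2 fold changes against WT were −2.21, −1.39 and −0.82 in G245S and −2.07, −1.62 and −0.90 in R273H, each past an adjusted p of 0.05 (edgeR's quasi-likelihood test, Benjamini-Hochberg adjusted). Every mutant library was below every WT library for each of the 3 genes.

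Against that contrast, 0 of the 39 import genes tested passed an adjusted p of 0.05 in edgeR's quasi-likelihood test in G245S against WT, in R273H against WT or in R273H against G245S. Of all genes tested, 0.126% passed in G245S, 0.137% in R273H and 0% between the mutants, so a set of this size would hold almost no call at the rate of the whole table. DESeq2 called 0 import genes as well in each comparison. At an unadjusted p under 0.05 there were 2 import genes in G245S (CHCHD4 and TIMM17B, both with lower values), 1 in R273H (TIMM17B) and 1 between the mutants (CHCHD4). The shares of all genes under that threshold were 6.66%, 6.11% and 4.75%, against 5.13%, 2.56% and 2.56% of the import genes. DESeq2, run on all genes with a count, gave 1, 1 and 0 of 40 import genes at an unadjusted p under 0.05. The shares of all genes in DESeq2 were 1.05%, 0.887% and 0.822%. TOMM20L, a TOMM20 paralogue, held 0 to 2 counts in every library and was not among the 39 import genes tested with edgeR.

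The median log2 fold change over the 39 genes was 0.012 in G245S and 0.046 in R273H against WT, and 0.035 in R273H against G245S. The medians of all genes were 0.0034, 0.0023 and −0.0048. The comparisons with WT share the same 2 WT libraries. By sign, 23 import genes were above and 16 below WT in G245S, and 27 above and 12 below in R273H. Of all genes, 8073 were above and 7820 below WT in G245S, and 8119 above and 7903 below in R273H. Between the mutants, 28 import genes were above and 11 below in R273H, beside 7543 above and 8071 below of all genes. The import genes moved together between libraries (below), so their signs are not independent and were not tested. The precision was enough to bound most changes. The 95% interval of the fold change lay inside 1.5-fold in either direction for 37 of 39 genes in G245S, 38 in R273H and 37 between the mutants, and inside 1.3-fold for 33, 33 and 37. The genes outside 1.5-fold were TIMM23B and, in G245S and between the mutants, TIMM23B-AGAP6, the 2 tested genes with the lowest mean counts.

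**Figure D1:**
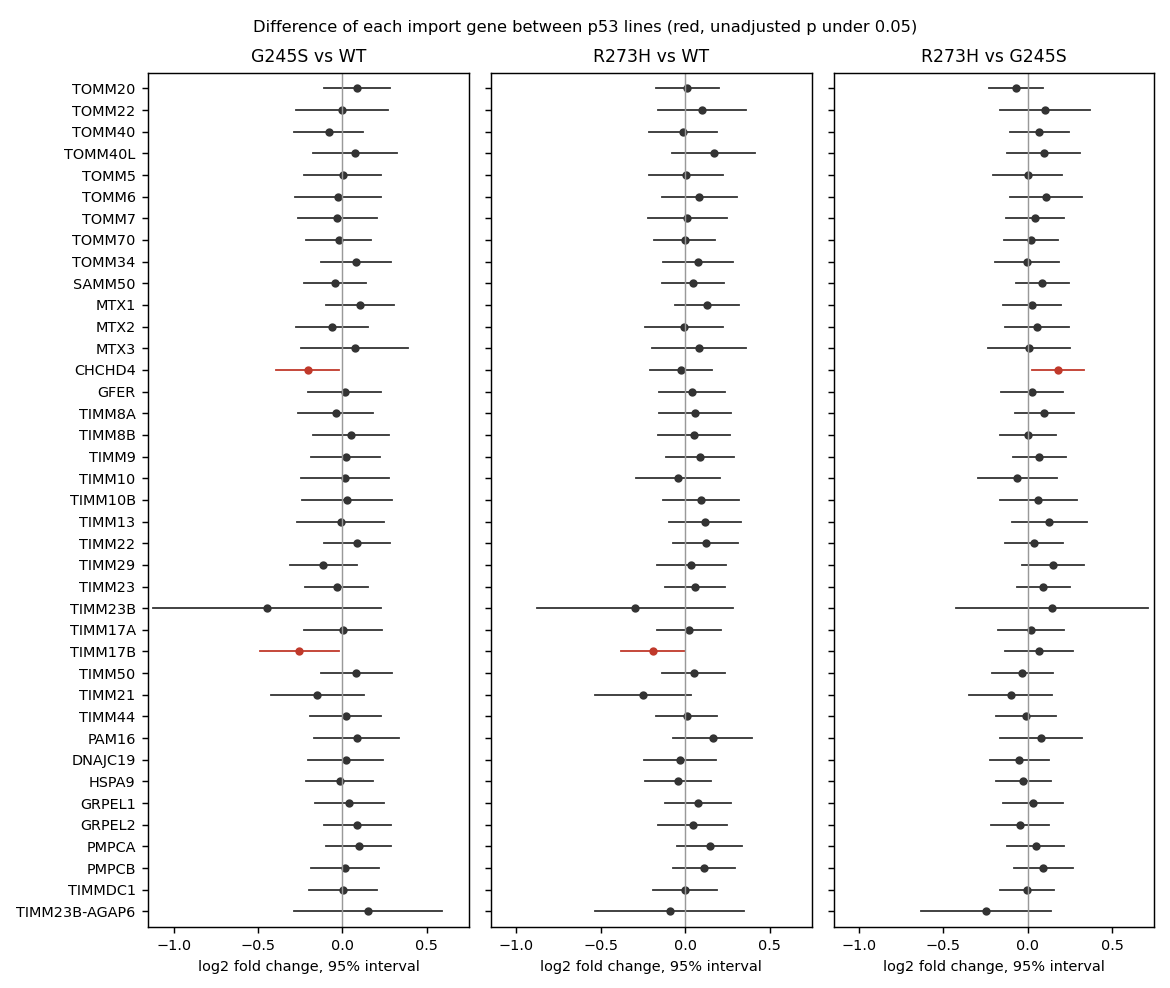
Each row is an import gene in order of step, and each panel a comparison. Points give edgeR's log2 fold change and lines its 95% interval, with red for an unadjusted p under 0.05. Most intervals cross 0 and end well inside 0.5 on either side, TIMM17B is red in both comparisons with WT, and TIMM23B has the widest interval.

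Levels differed far more between genes than between lines. Divided by the length of the reference transcript, the highest of the 40 were TOMM7 with 1049 CPM per kb, TOMM6 with 539, TIMM8B with 349, TIMM13 with 308 and TOMM22 with 272 (means of 9 libraries). TOMM7 and TOMM6 are small subunits that stabilize the TOM core. The lowest were TOMM20L with 0.159 CPM per kb, TIMM23B with 1.06, TIMM23B-AGAP6 with 1.55, MTX3 with 2.43 and TOMM40L with 8.05. The reads were counted over exons and 3′ UTRs, and whether the count of a gene scales with its transcript length in these libraries is not given in the sources used here. The 40 genes together held between 0.530% and 0.610% of the normalised counts of the 8 fitted libraries.

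**Figure D2:**
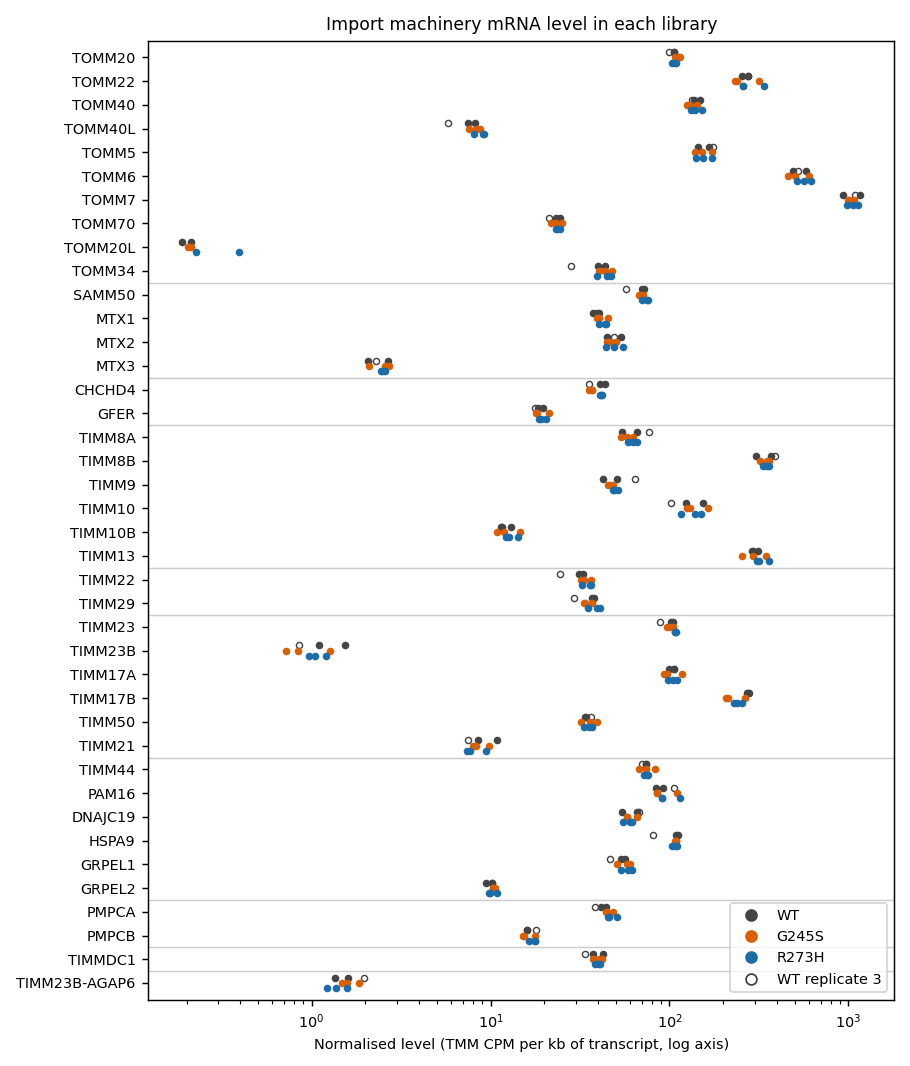
Normalised CPM per kb of reference transcript on a log axis, with 1 point per library, coloured by p53 line, and an open circle for WT replicate 3. Libraries in which TOMM20L had no count are not drawn. Apart from TOMM20L, whose few counts scatter widely, the points of a gene lie close together beside the spread from 0.159 to 1049 CPM per kb between genes.

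At the outer membrane, 0 of 13 genes tested passed, and the medians of their log2 fold changes were −0.00088 in G245S, 0.046 in R273H and 0.043 between the mutants. TOMM20, the receptor for presequences, was at 349 and 346 CPM in the fitted WT libraries (325 in WT replicate 3), at 372, 354 and 374 in the G245S libraries and at 354, 358 and 341 in the R273H libraries. All 3 G245S libraries lay above both fitted WT libraries, and the R273H libraries overlapped WT. The log2 fold changes were 0.084 (standard error 0.0914) in G245S and 0.014 (standard error 0.0886) in R273H.

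TOMM22, the central receptor that joins TOMM20 and TOMM40, was at 561 and 515 CPM in the fitted WT libraries (557 in WT replicate 3), at 487, 645 and 475 in the G245S libraries and at 521, 686 and 523 in the R273H libraries. A single library of each mutant, replicate 2, was far above its group, and every group overlapped the others. The log2 fold change was −0.00088 in G245S and 0.10 in R273H, with 95% intervals from −0.27 to 0.27 and from −0.16 to 0.36.

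TOMM40, the channel itself, was at 241 and 261 CPM in the fitted WT libraries (236 in WT replicate 3), at 232, 253 and 223 in the G245S libraries and at 233, 267 and 246 in the R273H libraries, and its groups overlapped. Its log2 fold changes were −0.082 and −0.012. TOMM70, the receptor for carriers delivered by chaperones, was at 95.5 and 99.8 CPM in the fitted WT libraries (86.5 in WT replicate 3), at 94.8, 102 and 89.7 in the G245S libraries and at 97.0, 95.1 and 99.9 in the R273H libraries. Its log2 fold changes were −0.023 in G245S and −0.0021 in R273H, and its groups overlapped.

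The other tested genes with TOMM symbols had log2 fold changes between −0.031 (TOMM7 in G245S) and 0.17 (TOMM40L in R273H). TOMM40L, a TOMM40 paralogue, was at 22.8 and 20.9 CPM in the fitted WT libraries (16.2 in WT replicate 3), at 23.2, 24.4 and 21.1 in the G245S libraries and at 25.7, 25.4 and 22.6 in the R273H libraries. Its value in R273H had a standard error of 0.114, and the groups overlapped. Per length, TOMM40L made up 4.85% to 6.54% of the sum of TOMM40 and TOMM40L in the 8 fitted libraries, with means of 5.24% in WT, 5.79% in G245S and 5.91% in R273H (SDs of 0.561, 0.17 and 0.552). The R273H libraries overlapped WT, and the lowest G245S library was level with the higher WT library.

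Of the SAM complex, SAMM50, its channel, had log2 fold changes of −0.043 and 0.046, and MTX2, a partner on the cytosolic face, −0.062 and −0.0062. MTX1, another metaxin, was among the 3 highest import genes with at least 5 CPM in G245S. It was at 66.0 and 61.4 CPM in the fitted WT libraries (64.0 in WT replicate 3), at 64.6, 74.2 and 66.2 in the G245S libraries and at 65.9, 71.9 and 71.5 in the R273H libraries, with log2 fold changes of 0.11 (standard error 0.0938) and 0.13 (standard error 0.0889). The MTX1 libraries of both mutants overlapped WT.

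In the intermembrane space, CHCHD4 gave 1 of the 2 smallest p-values of the set in G245S. CHCHD4 (ENSG00000163528, GRCh38 chromosome 3, 14112077 to 14124870, minus strand) is the oxidoreductase that forms disulfides in incoming proteins. It was at 62.4 and 58.8 CPM in the fitted WT libraries (50.6 in WT replicate 3), at 51.0, 53.1 and 53.2 in the G245S libraries and at 59.5, 58.8 and 60.5 in the R273H libraries. The G245S libraries were all below both fitted WT libraries and all below the R273H libraries, but WT replicate 3 was lower still. The means were 60.6 ± 2.51 CPM for WT (SD, n = 2), 52.4 ± 1.26 CPM for G245S (SD, n = 3) and 59.6 ± 0.865 CPM for R273H (SD, n = 3). Against WT, the log2 fold change in G245S was −0.20 (standard error 0.0870, unadjusted p = 0.0342, edgeR's adjusted p = 0.725). In R273H it was −0.024 (edgeR's adjusted p = 0.997). Between the mutants, R273H against G245S, it was 0.18 (standard error 0.0730, unadjusted p = 0.0271, edgeR's adjusted p = 0.994). With all 3 WT libraries the G245S value was −0.16. GFER, which reoxidizes CHCHD4, had log2 fold changes of 0.012 in G245S and 0.025 between the mutants, and was not tested against CHCHD4.

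Of the 6 small TIM chaperones, TIMM13 was at 517 and 488 CPM in the fitted WT libraries (482 in WT replicate 3), at 423, 576 and 490.2 in the G245S libraries and at 512, 596 and 526 in the R273H libraries, and TIMM10 at 102 and 83.0 CPM in the fitted WT libraries (68.2 in WT replicate 3), at 84.1, 109.5 and 86.9 in the G245S libraries and at 77.0, 100.3 and 92.7 in the R273H libraries. In both genes the range of values inside each mutant was wider than the distance between any pair of group means. TIMM9 was at 63.4 and 53.5 CPM in the fitted WT libraries (80.8 in WT replicate 3), at 57.1, 60.7 and 59.3 in the G245S libraries and at 60.8, 61.0 and 64.6 in the R273H libraries. Its R273H libraries lay above all G245S libraries, and both mutants overlapped WT. TIMM13 had the largest log2 fold change of the 6 chaperones between the mutants, 0.13 (standard error 0.105, edgeR's adjusted p = 0.994). Over the 6 genes, the log2 fold changes ran from −0.041 to 0.048 in G245S and from −0.044 to 0.12 in R273H.

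At the inner membrane, TIMM22, the carrier insertase, was at 105 and 100.0 CPM in the fitted WT libraries (78.0 in WT replicate 3), at 106, 116 and 102 in the G245S libraries and at 115, 103 and 116 in the R273H libraries. Its log2 fold changes were 0.086 in G245S and 0.12 in R273H, and its groups overlapped. TIMM29, a TIM22 subunit, was at 51.3 and 50.0 CPM in the fitted WT libraries (39.4 in WT replicate 3), at 49.4, 45.4 and 44.7 in the G245S libraries and at 47.4, 55.4 and 53.2 in the R273H libraries. All G245S values of TIMM29 were below both fitted WT values, while R273H spanned them. The log2 fold changes were −0.11 in G245S, 0.038 in R273H and 0.15 (standard error 0.0856, edgeR's adjusted p = 0.994) between the mutants.

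TIMM17B was the import gene with an unadjusted p under 0.05 in both comparisons with WT. TIMM17A and TIMM17B are alternative subunits that line the TIM23 translocation path, encoded on different chromosomes. TIMM17B (ENSG00000126768) lies on GRCh38 chromosome X, 48893447 to 48898143, minus strand, and shares exonic bases with PQBP1 on the other strand, which the strand-specific counting of the authors keeps apart. Its level was 226 and 222 CPM in the fitted WT libraries (228 in WT replicate 3), at 170.0, 217 and 173 in the G245S libraries and at 194, 208 and 187 in the R273H libraries. All 6 mutant libraries were below all 3 WT libraries, with G245S replicate 2 the nearest. The means were 224 ± 2.76 CPM for WT (SD, n = 2), 187 ± 26.5 CPM for G245S (SD, n = 3) and 196 ± 10.6 CPM for R273H (SD, n = 3). The log2 fold change was −0.26 (standard error 0.109, 95% interval −0.49 to −0.023, unadjusted p = 0.0335, edgeR's adjusted p = 0.722) in G245S. It was −0.19 (standard error 0.0883, 95% interval −0.38 to −0.0020, unadjusted p = 0.0479, edgeR's adjusted p = 0.813) in R273H. Neither value passed the threshold over all genes. The unadjusted p stayed under 0.05 in 9 of 16 alternative settings in G245S and in 5 of 16 in R273H.

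TIMM17A was at 175 and 163 CPM in the fitted WT libraries (174 in WT replicate 3), at 153, 194 and 159 in the G245S libraries and at 162, 181 and 173 in the R273H libraries, and the groups overlapped. Its change was not tested against that of TIMM17B. The log2 fold changes of TIMM17A were 0.0020 (95% interval −0.23 to 0.23) in G245S and 0.023 (95% interval −0.17 to 0.21) in R273H. The intervals of TIMM17A and TIMM17B overlap in G245S and in R273H. Per length, TIMM17B made up 72.3% and 73.3% of the sum of TIMM17A and TIMM17B in the fitted WT libraries and 72.5% in WT replicate 3. The share was 69.1%, 69.3% and 68.7% in G245S and 70.7%, 69.8% and 68.6% in R273H. The ratio within a library was thus lower in all 6 mutant libraries than in all 3 WT libraries. G245S replicate 2, in which both genes were high, had a share like that of its group. This ratio was formed after the values of TIMM17B were seen, and is given without a test.

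The coding sequences of both genes, from the GENCODE v44 reference transcripts, show how far their reads can be told apart, since a read that matches both is split between them. Over 513 aligned bases 68.2% were identical, and the longest identical run was 23 bases, below the minimum read length of 50 bases that the authors kept. The first 60 coding bases, the most alike stretch of that length aligned without a gap, are printed with the 6 differing bases in capitals.
TIMM17A: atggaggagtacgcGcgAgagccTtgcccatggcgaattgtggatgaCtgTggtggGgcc
TIMM17B: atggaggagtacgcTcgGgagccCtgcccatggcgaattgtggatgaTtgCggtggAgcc

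**Figure D3:**
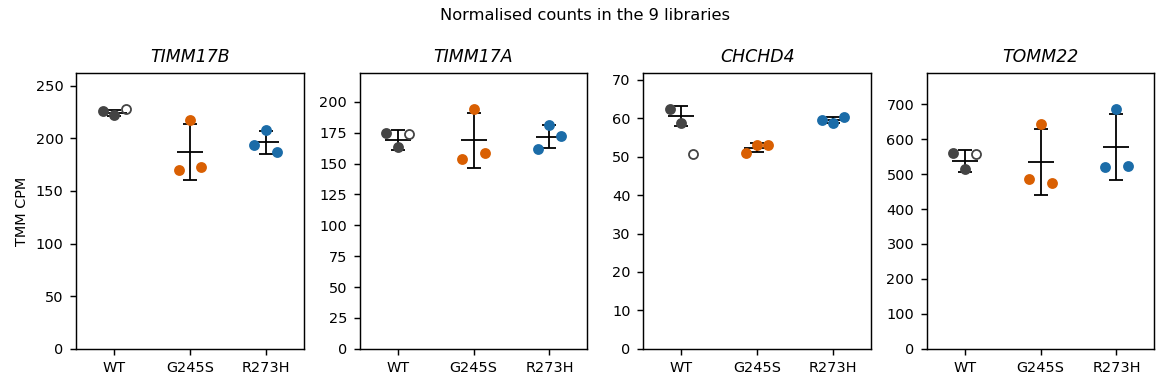
TMM-normalised CPM of 4 import genes in each library, with bars for the mean and SD of the fitted libraries (2 WT, 3 G245S and 3 R273H) and an open circle for WT replicate 3, which is not in the mean. TIMM17B is below the 3 WT values in all 6 mutant libraries, CHCHD4 is low in G245S and in WT replicate 3, and TIMM17A and TOMM22 overlap in all groups.

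TIMM23, the presequence channel, was at 124 and 122 CPM in the fitted WT libraries (105 in WT replicate 3), at 115, 119 and 125 in the G245S libraries and at 129, 128 and 128 in the R273H libraries. Its R273H values, all near 128 CPM, lay above both other groups. The log2 fold changes were −0.034 in G245S, 0.060 in R273H and 0.093 (standard error 0.0724) between the mutants. TIMM23B, a near copy on the same chromosome, was at 2.76 and 3.85 CPM in the fitted WT libraries (2.11 in WT replicate 3), at 3.16, 1.80 and 2.09 in the G245S libraries and at 2.42, 3.01 and 2.61 in the R273H libraries, and TIMM23B-AGAP6 at 5.75 and 4.88 CPM in the fitted WT libraries (7.03 in WT replicate 3), at 6.62, 5.28 and 5.66 in the G245S libraries and at 5.65, 4.92 and 4.40 in the R273H libraries. TIMM23B shares exons with TIMM23B-AGAP6 on the same strand, so their separate values are uncertain. The log2 fold changes of TIMM23B, −0.45 and −0.30, had standard errors of 0.314 and 0.272, and those of TIMM23B-AGAP6 were 0.15 and −0.092 against WT and −0.25 between the mutants. TIMM23 held 92.0% to 94.8% of the summed level of the 3 genes. The sum was 132 ± 1.28 CPM for WT (SD, n = 2), 128 ± 4.28 CPM for G245S (SD, n = 3) and 136 ± 0.889 CPM for R273H (SD, n = 3). The coding sequences of TIMM23 and TIMM23B were 95.2% identical over 564 aligned bases, with a longest identical run of 109 bases, longer than the shortest reads kept. In all, 27 aligned bases differed. Of the stretches of 60 coding bases aligned without a gap, bases 9 to 68 of both genes held the most differences. They are printed with the 3 differing bases in capitals.
TIMM23: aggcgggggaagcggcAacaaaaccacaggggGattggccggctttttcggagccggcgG
TIMM23B: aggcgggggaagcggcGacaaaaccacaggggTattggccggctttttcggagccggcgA

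TIMM50, the receptor of the TIM23 complex, was at 172 and 170.0 CPM in the fitted WT libraries (184 in WT replicate 3), at 162, 198 and 180.5 in the G245S libraries and at 178, 185 and 168 in the R273H libraries, with log2 fold changes of 0.083 and 0.052 and overlapping groups. TIMM21, which links TIM23 to TOM and the respiratory chain, was at 33.3 and 26.1 CPM in the fitted WT libraries (23.2 in WT replicate 3), at 25.5, 30.3 and 24.6 in the G245S libraries and at 22.7, 29.0 and 23.8 in the R273H libraries. WT replicate 1 was the highest library and the other WT values lay among the mutants. The log2 fold change of TIMM21 was −0.15 (standard error 0.129) in G245S and −0.25 (standard error 0.132, edgeR's adjusted p = 0.889) in R273H.

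In the matrix, 0 of 8 genes passed, with medians of 0.031 in G245S, 0.060 in R273H and 0.010 between the mutants. HSPA9, the mitochondrial HSP70 that drives the motor, was the steadiest import gene in the 8 fitted libraries, with a coefficient of variation of 2.27%. It was at 488 and 482 CPM in the fitted WT libraries (358 in WT replicate 3), at 480.4, 478 and 473 in the G245S libraries and at 485, 453 and 474 in the R273H libraries. Its log2 fold changes were −0.016 (95% interval −0.21 to 0.18) and −0.041 (95% interval −0.24 to 0.15). WT replicate 3 was well below every other library.

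PAM16, which regulates the J-protein of the motor, was at 49.2 and 44.7 CPM in the fitted WT libraries (56.2 in WT replicate 3), at 45.3, 58.6 and 45.2 in the G245S libraries and at 48.6, 61.0 and 48.5 in the R273H libraries, with log2 fold changes of 0.083 and 0.16. Replicate 2 of each mutant carried the high values, and the other 2 mutant libraries of each line were near WT. PAM16 shares exons on its strand with the readthrough gene CORO7-PAM16. GRPEL1 and GRPEL2, nucleotide exchange factors of HSPA9, had log2 fold changes of 0.041 and 0.088 in G245S and 0.074 and 0.046 in R273H.

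PMPCB, the catalytic subunit of the processing peptidase, was at 62.2 and 62.6 CPM in the fitted WT libraries (70.3 in WT replicate 3), at 59.7, 69.1 and 59.95 in the G245S libraries and at 68.9, 69.2 and 63.9 in the R273H libraries, and PMPCA, its partner, at 92.3 and 86.3 CPM in the fitted WT libraries (80.1 in WT replicate 3), at 93.1, 101 and 91.6 in the G245S libraries and at 95.6, 106 and 94.4 in the R273H libraries. All R273H values of both subunits were above both fitted WT values, while G245S overlapped WT in both. The log2 fold changes in R273H were 0.11 (standard error 0.0871, edgeR's adjusted p = 0.957) for PMPCB and 0.14 (standard error 0.0903, edgeR's adjusted p = 0.93) for PMPCA. WT replicate 3 had 70.3 CPM of PMPCB, above every R273H library, and 80.1 CPM of PMPCA, below all other libraries.

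Groups that did not overlap were counted over the fitted libraries. This held for 6 import genes in G245S against WT, with TOMM20 and GRPEL2 above WT and CHCHD4, TIMM29, TIMM17B and HSPA9 below it. The share of all genes was 22.1%, against 15.4% of the import genes. In R273H against WT it held for 4 (TIMM23, PMPCA and PMPCB above, TIMM17B below), or 10.3%, against 20.7% of all genes. Between the mutants it held for 3, or 7.69% (CHCHD4, TIMM9 and TIMM23, all above in R273H), against 9.01% of all genes. None of these counts exceeded its background.

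The import genes moved together between replicates of the same line. The median deviation of the 39 genes from their 8-library means was 0.085 in G245S replicate 2 and 0.088 in R273H replicate 2 on the log2 scale. It was −0.081 and −0.072 in G245S replicates 1 and 3, −0.031 and 0.019 in R273H replicates 1 and 3, 0.035 and −0.078 in WT replicates 1 and 2, and −0.082 in WT replicate 3. The same median over all genes was between −0.0088 and 0.0049 in every library. The distance between replicates of G245S was thus larger than any difference between the medians of the lines.

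Of the 38 import genes with a mean of at least 5 CPM, 23 had their highest value of the 8 libraries in one of those 2 replicates, or 60.5%, against 26.1% of all genes at that level. In 12, or 31.6%, both libraries were above each of the other 6, against 7.57% of all genes. The 12 were TOMM22, TOMM5, TOMM6, MTX1, GFER, TIMM10B, TIMM13, TIMM17A, TIMM50, PAM16, PMPCA and PMPCB, from every step of import. G245S replicate 1 held the lowest value of 15 of the 38, or 39.5%, against 16.5% of all genes. The 2 libraries had 8015563 and 7325514 counts, against 7683597 to 9667306 in the other 6, so R273H replicate 2 was the shallowest of the 8, and their library preparation is not given apart from the rest. The 2 libraries were singled out by the medians of these same import genes, so the shares above describe the pattern and do not test it. What sets these libraries apart was not tested.

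**Figure D4:**
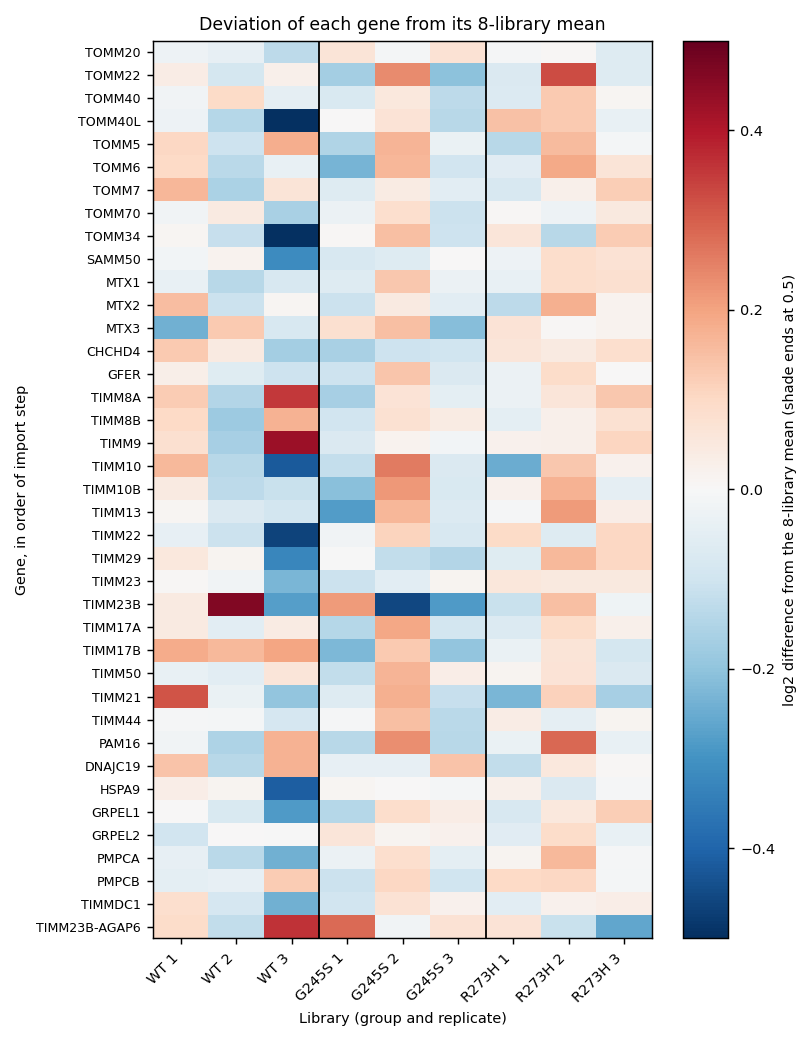
Each row is 1 of the 39 tested import genes and each column a library. The shade gives the log2 difference from the mean of the 8 fitted libraries, red above and blue below. Values beyond 0.5 take the end shade. G245S 2 and R273H 2 are red for most genes, G245S 1 is mostly blue, and WT 3 mixes strong red and blue.

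Across the 8 libraries the coefficient of variation of the 38 genes had a median of 7.37%, from 2.27% for HSPA9 to 13.7% for TOMM22, beside 8.90% for all genes with a mean of at least 5 CPM. The shallow WT replicate 3 lay outside the range of the other 8 libraries for 23 of the 40 genes, below it for 15 and above it for 8. The same count was not made over all genes, so it shows nothing particular to the import genes.

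Factors that act around the import machinery were read from a list of 36 genes, of which 35 were tested. It held chaperones that deliver precursors, inner-membrane insertases, other presequence and quality-control peptidases, matrix chaperones and the MICOS contact sites. Of these, 0 passed an adjusted p of 0.05 in edgeR's quasi-likelihood test in any comparison, and DESeq2 called 0 too. The counts at an unadjusted p under 0.05 in edgeR were 1 (2.86%), 0 and 0 in G245S, R273H and between the mutants. The shares of all genes were 6.66%, 6.11% and 4.75%. In DESeq2 the counts were 0, 0 and 0, against 1.05%, 0.887% and 0.822% of all genes. The 1 was DNAJC11, a partner of MICOS, with a log2 fold change of 0.21 (edgeR's adjusted p = 0.725) in G245S. The medians over the list were 0.0018, 0.025 and 0.012.

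In genome position the set was scattered. The 40 genes lay on 18 chromosomes, with 5 on chromosome 19 (TOMM40, TIMM13, TIMM29, TIMM50 and TIMM44). TIMM9 and TOMM20L overlap on opposite strands of chromosome 14. Promoters of 37 genes, 250 bases before to 50 after the start, were matched by symbol in RefSeq (GRCh38.p14). TOMM5, TIMM8B and GRPEL1 had no match. Their median GC content was 64.7%, against 58.7% for all 35116 promoters. Short motifs were searched on both strands.

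The NRF1 core GCGCATGC was found in 5 of 37, or 13.5%, against 3.05% of all promoters (CHCHD4, PAM16, TIMM10B, TIMM9 and TOMM7). NRF1 is an activator of nuclear genes for mitochondrial proteins. The YY1 motif AAGATGGC was found in 4, or 10.8%, against 2.89%, and the ETS motif CCGGAAGT in 10, or 27.0%, against 4.14%. The p53 half-site was found in 1 (TIMM10B), or 2.703%, against 6.63% of all promoters, and a pair of half-sites up to 13 bases apart in 0 of the 37 and 0.0285% of all. A match is a description of letters, and no binding was measured in these libraries.

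Promoters are printed for TIMM17B and CHCHD4, the genes with the smallest p-values, and for TOMM20 and TIMM50, which hold the other motifs. Each runs 5′ to 3′ from 200 bases before the RefSeq start to 30 bases after it (GRCh38.p14), with motif matches in capitals. TIMM17B, chrX:48897739-48897968 on the minus strand, holds none of the 3 motifs in this window. CHCHD4, chr3:14124841-14125070 on the minus strand, holds the NRF1 core on both strands, overlapping, at −152 to −143. TOMM20, chr1:235128808-235129037 on the minus strand, holds the ETS motif at −22 to −15, and TIMM50, chr19:39480638-39480867 on the plus strand, the YY1 motif at bases 14 to 21 after the start.
TIMM17B: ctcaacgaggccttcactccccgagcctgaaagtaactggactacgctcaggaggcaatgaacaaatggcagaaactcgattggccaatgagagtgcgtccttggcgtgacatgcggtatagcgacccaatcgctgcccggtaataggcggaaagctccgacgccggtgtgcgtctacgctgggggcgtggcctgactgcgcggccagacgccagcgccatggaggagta
CHCHD4: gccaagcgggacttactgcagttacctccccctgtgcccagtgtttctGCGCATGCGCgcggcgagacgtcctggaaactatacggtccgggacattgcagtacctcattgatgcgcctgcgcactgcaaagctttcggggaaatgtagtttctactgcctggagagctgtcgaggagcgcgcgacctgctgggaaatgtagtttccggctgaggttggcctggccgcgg
TOMM20: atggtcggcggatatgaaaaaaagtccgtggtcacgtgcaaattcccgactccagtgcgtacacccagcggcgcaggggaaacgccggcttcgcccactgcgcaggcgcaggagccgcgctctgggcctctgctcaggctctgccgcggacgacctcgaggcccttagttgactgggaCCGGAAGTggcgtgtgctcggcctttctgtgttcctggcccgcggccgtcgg
TIMM50: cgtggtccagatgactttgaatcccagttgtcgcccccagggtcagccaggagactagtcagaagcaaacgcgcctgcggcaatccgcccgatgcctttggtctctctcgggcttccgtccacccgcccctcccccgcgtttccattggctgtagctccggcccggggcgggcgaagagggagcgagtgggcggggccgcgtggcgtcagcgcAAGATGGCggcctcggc
Of the 5 genes with the NRF1 core, CHCHD4 was at a log2 fold change of −0.20 in G245S. PAM16, TIMM10B, TIMM9 and TOMM7 were at 0.083, 0.027, 0.019 and −0.031 there. Their standard errors were 0.117, 0.125, 0.0963 and 0.109, so their directions are not resolved. A link between the motif and these values was not tested.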

How the data were processed

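Stable HEK293T lines expressing WT, G245S or R273H p53 were sequenced in 9 libraries. The authors filtered reads with fastp 0.24.0, aligned them with STAR 2.7.11, collapsed duplicates by molecular identifier and counted them with featureCounts (Subread 2.1.1), by strand, splitting multi-mapping reads into fractions. What they deposited is a table of expected counts on GRCh38, not normalized. Its 9 columns of CPM, also deposited, were left unused. Fractions were rounded before any fit.

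WT replicate 3 was left out for depth, as it fell below 4096044 counts, or 0.5 of the median over the remaining 8 libraries. Each comparison was fitted on its own libraries with filterByExpr, TMM and the quasi-likelihood test of edgeR 4.0.16 (R 4.3.3), with Benjamini-Hochberg adjustment over all genes and a threshold of 0.05. Levels are TMM CPM over 9 libraries. Intervals are 95% t intervals of the log2 fold change. DESeq2 1.42.0 was an alternative. Other alternatives covered WT libraries, left-out replicates, scaling, filters, 1 fit of all groups, a replicate block and protein-coding genes. The steps were tested on simulated data. Python 3.11.15 with pandas, numpy and Biopython was used for tables and sequences.

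The genes, lists and naming rule were chosen with earlier results of these data known. Values were given in every library for 11 genes of known role, for the 3 highest and 3 lowest of each comparison averaging 5 CPM or more, and for genes with an unadjusted p under 0.05 in both comparisons with WT. Others were named after their values were seen. The lists were the import genes, 36 further import factors, 3 p53 targets and marker genes of epithelium, this line, fibroblasts, leukocytes and endothelium. Of the import genes, 35 had a fractional count in some library, and 10 overlap an exon of another gene on their strand. Intervals cover the spread between these libraries. A floor of 3 counts was 0.310 to 0.410 CPM in the fitted libraries.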

Additional observations from a re-analysis of the deposited data

How the results depend on the processing

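No import gene and none of the 36 further factors passed an adjusted p of 0.05 under any alternative, edgeR's quasi-likelihood test or DESeq2 (lowest edgeR adjusted p = 0.168, TIMM17B in G245S without G245S replicate 2). The median log2 fold change of the import genes ran from −0.050 to 0.085 in G245S, from 0.0048 to 0.11 in R273H and from 0.010 to 0.085 between the mutants, each within 1 SD between replicates of the value in the report. The sign changed under some alternative for 26, 24 and 22 of the genes. TIMM17B stayed negative in both comparisons with WT (−0.38 to −0.20 and −0.23 to −0.16), with an unadjusted p under 0.05 in 9 and 5 of 16 alternatives. CHCHD4 also stayed negative in G245S (−0.25 to −0.099), with an unadjusted p under 0.05 in 7 of 16. Leaving out G245S replicate 2 raised the import genes at an unadjusted p under 0.05 between the mutants from 1 to 5 of 39, while the share of all genes rose from 4.75% to 8.73%. Calls over all genes ranged from 3 (WT replicates 1 and 3) to 144 (no filter) in G245S, from 4 to 93 in R273H and from 0 to 125 between the mutants. Leaving 1 WT library assumes that it varies like the others. Whether a replicate number marks a shared batch is not given in the sources used here. Same-numbered deviations correlated at −0.17 to 0.29, highest for replicate 2 of the mutants, and not every pair was above 0.1. Pairs with different numbers correlated at −0.28 to 0.18. The deviations are from group means, so those of the 2 fitted WT libraries mirror each other. A correlation with 1 of them is by construction the negative of that with the other, so these ranges are not independent. A shared batch was not tested. With the replicate block, 0 import genes passed, medians were 0.022, 0.026 and 0.036, and calls over all genes were 76, 47 and 59 against 20, 22 and 0.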
